A study of Mus musculus with 12 samples.

Results

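Metallothioneins and the genes that set zinc levels were followed in C8-D1A, an established line of mouse astrocytes, under 3 treatments that can acidify cultures. The 5 genes are Mt1, Mt2, Mtf1, Slc30a1 and Slc39a10, out of 21959 genes in the deposited table. They were chosen by name because Mt1 was lower than in control under all 3 treatments, so their differences from control chose them and are given as a description without a test. Comparisons between treatments and the other zinc transporters were tested. The groups were cells kept under 15% CO2, cells given 20 mM lactic acid, cells in medium whose NaHCO3 had been cut to 0.2 g/L (low NaHCO3), and control cells at 37 °C under 5% CO2. Each group had 3 libraries of RNA taken after 24 h. The labels give no pH, name a single cell line, and do not state whether replicate libraries were grown as separate cultures, so the spread among 3 of them may be technical.

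Metallothioneins are small cysteine-rich proteins that bind zinc and copper in the cytosol, and astrocytes are a main source of metallothionein 1 and 2 in the brain. Free zinc in the nucleus is sensed by the transcription factor MTF-1, the product of Mtf1. It binds metal response elements and switches on Mt1, Mt2 and Slc30a1 when zinc is plentiful, and in mouse it holds down Slc39a10. Slc30a1 encodes ZnT1, which carries zinc out of the cell, and Slc39a10 encodes ZIP10, which carries it in.

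Windows before the RefSeq starts of Mt1, Mt2 and Slc30a1 are shown because these are the genes MTF-1 is known to switch on. Each line holds the 250 bases before the RefSeq start on GRCm38.p6, a build older than the GRCm39 assembly behind the deposited values. Capitals mark matches to the core of the metal response element, TGCGCNC or TGCACNC, on either strand.
Mt1 (chr8:94178839-94179088, plus strand): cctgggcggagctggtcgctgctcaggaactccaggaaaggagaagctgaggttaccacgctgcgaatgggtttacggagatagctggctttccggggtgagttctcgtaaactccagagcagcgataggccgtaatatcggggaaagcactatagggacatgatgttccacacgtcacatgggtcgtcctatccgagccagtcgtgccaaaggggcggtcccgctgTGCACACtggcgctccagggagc
Mt2 (chr8:94172368-94172617, plus strand): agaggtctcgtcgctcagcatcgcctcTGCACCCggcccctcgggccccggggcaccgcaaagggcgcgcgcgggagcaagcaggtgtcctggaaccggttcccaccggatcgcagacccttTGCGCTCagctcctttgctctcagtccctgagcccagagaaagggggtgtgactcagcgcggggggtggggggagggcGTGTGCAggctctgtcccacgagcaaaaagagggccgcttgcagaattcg
Slc30a1 (chr1:191906531-191906780, plus strand): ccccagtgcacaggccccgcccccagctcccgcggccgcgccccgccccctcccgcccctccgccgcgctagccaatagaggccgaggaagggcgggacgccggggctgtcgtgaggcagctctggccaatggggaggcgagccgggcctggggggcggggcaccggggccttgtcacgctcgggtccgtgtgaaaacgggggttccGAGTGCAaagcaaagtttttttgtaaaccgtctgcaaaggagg
The Mt1 window held 1 match, beginning 23 bases before the start. The Mt2 window held 3 matches, at 223, 128 and 50 bases before the start, the last on the minus strand. The Slc30a1 window held 1 match on the minus strand, at 43 bases before the start. Windows of Mtf1 on chromosome 4 and of both Slc39a10 starts on chromosome 1 held none. Of 32851 RefSeq windows of the same length, 21.4% held at least 1 match and 1.26% held at least 3. A match is a description of letters and not a binding site, and bases after the RefSeq start were not searched. GENCODE M21 also lists Mt1 transcripts that start 122 and 152 bases after the RefSeq start, 2 Mt2 starts 46 and 242 bases after it, a Slc30a1 start 475 bases after it, an Mtf1 start 129 bases after it and a Slc39a10 start 32924 bases after the nearest RefSeq start, so the windows do not cover all starts of these genes.

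All 12 libraries were read as TPM, transcripts per 1000000, which are shares of each library and comparable between genes per unit length. The depth of the libraries is unknown, and each listed 14531 to 17319 genes above 0 TPM. Control 1 stood apart: across genes its Spearman correlation with the other 11 libraries was 0.859 to 0.884, against 0.958 to 0.980 among those 11. Of 45 markers of brain and blood cells, 42 were highest in control 1. Its summed TPM was 2083 for 8 neuron markers, 992 for 7 oligodendrocyte markers, 165 for 7 microglia markers and 355 for 5 red blood cell markers. In the other 11 libraries those sums ran from 4.84 to 10.4, from 35.2 to 76.8, from 3.86 to 11.04 and from 0.594 to 4.01. Of 11 markers of mature astrocytes, 8 were at or under 1.19 TPM in each of the 11 other libraries, Gfap and Aqp4 among them, while Vim, Sox9 and S100b were clearly present. The label of astrocyte thus rests on few of its usual markers in these cells. For the 5 genes, values without control 1 stand beside the 12-library values below.

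**Figure D1:**
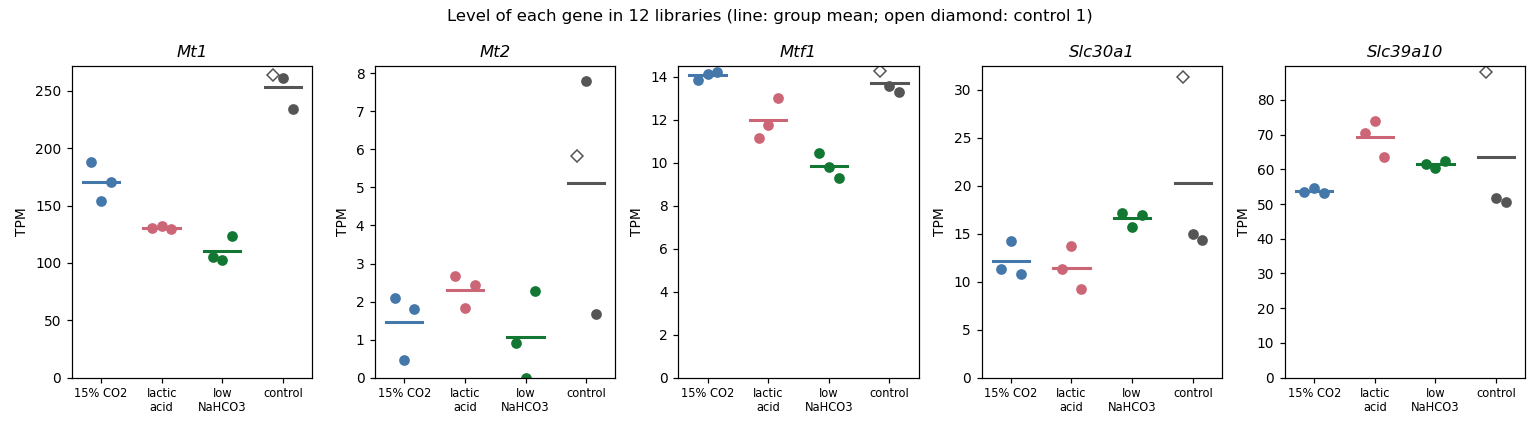
TPM of Mt1, Mt2, Mtf1, Slc30a1 and Slc39a10 (vertical axes from 0) in each library of the 15% CO2, lactic acid, low-NaHCO3 and control groups; points are libraries, lines are means of 3, and the open diamond is control 1. All 9 treated libraries lie below the 3 controls for Mt1, and control 1 lies far above the other 2 controls for Slc30a1 and Slc39a10.

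Mt1 (ENSMUSG00000031765, chromosome 8) was the most abundant of the 5 genes in every library. It stood at 188, 154 and 170 TPM under 15% CO2 and at 131, 133 and 129 TPM with lactic acid. In low-NaHCO3 medium it stood at 106, 102 and 124 TPM, against 264, 262 and 235 TPM in control. Every treated library lay below every control library, and the low-NaHCO3 libraries lay below all the others. Control 1 lay close to control 2 for this gene.

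The Mt1 mean was 171 ± 16.9 TPM under 15% CO2, 131 ± 1.72 TPM with lactic acid, 110.5 ± 11.4 TPM in low-NaHCO3 medium and 253 ± 16.2 TPM in control (SD, n = 3 each). These means were 67.5%, 51.7% and 43.6% of the control mean. With control 1 left out they were 68.9%, 52.8% and 44.5% of the mean of the other 2 controls. On the log2(TPM + 1) scale the differences from control were −0.57 ± 0.098 for 15% CO2, −0.95 ± 0.098 for lactic acid and −1.19 ± 0.098 for low NaHCO3 (± SE of the fit). Without control 1 they were −0.54 ± 0.10, −0.92 ± 0.10 and −1.16 ± 0.10. The 3 differences share the control libraries. In bulk RNA, fewer cells with Mt1 mRNA and less Mt1 mRNA per cell cannot be told apart.

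Among all genes of a library, ordered from the most abundant down, Mt1 ranked 709, 1013 and 785 under 15% CO2 and 1245, 1221 and 1095 with lactic acid. It ranked 1734, 1795 and 1388 in low-NaHCO3 medium, against 454, 515 and 584 in control. The order of ranks between groups was that of the levels.

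**Figure D2:**
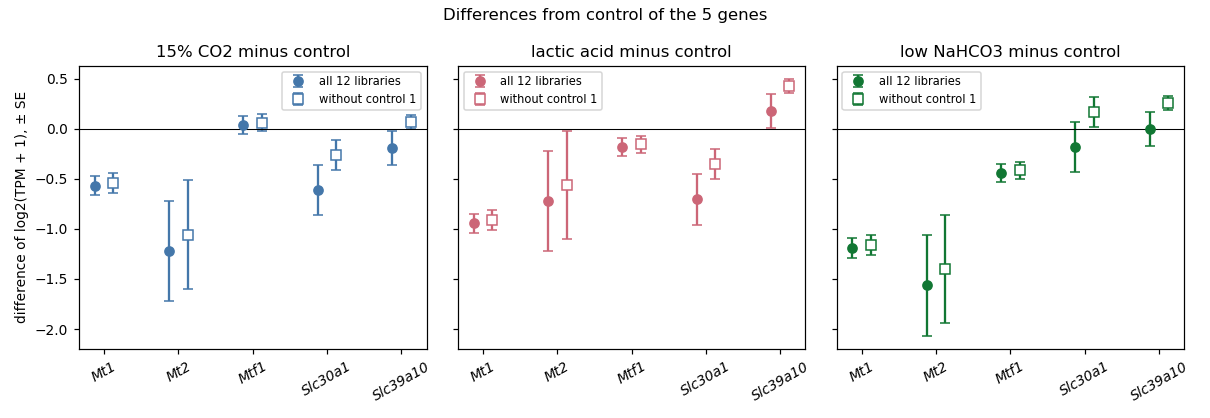
Difference from control of each of the 5 genes in log2(TPM + 1), with the standard error of the fit, for 15% CO2, lactic acid and low NaHCO3; filled circles use all 12 libraries and open squares leave out control 1. Mt1 keeps its value when control 1 is left out, while Slc30a1 and Slc39a10 move upward in all 3 panels.

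The 3 treatments were then compared with each other, which does not use the control values. Mt1 was lower in low-NaHCO3 medium than under 15% CO2 (log2 difference −0.62 ± 0.098, limma adjusted p = 0.000361, and 8.86e-05 without control 1). The call held under median-of-ratios scaling, where the difference was −0.40 (limma adjusted p = 0.0149). Low NaHCO3 against lactic acid gave −0.25 ± 0.098, which did not pass the threshold of 0.05 (limma adjusted p = 0.0576). This passed without control 1 (limma adjusted p = 0.03), and under median-of-ratios scaling the difference shrank to −0.061 (limma adjusted p = 0.686). Lactic acid against 15% CO2 gave −0.38 ± 0.098, with a 95% interval from −0.59 to −0.16 (limma adjusted p = 0.203, and 0.0408 without control 1). Leaving out control 1 narrows the spread that all groups share, so it can move calls between treatments whose values it does not change.

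Mt2 (ENSMUSG00000031762), which lies 5513 bases before Mt1 on chromosome 8, was expressed at a small share of the level of Mt1. It stood at 2.09, 0.472 and 1.79 TPM under 15% CO2 and at 2.68, 1.82 and 2.44 TPM with lactic acid. It stood at 0.904 and 2.27 TPM in low-NaHCO3 libraries 1 and 3 and was listed at 0 in library 2, against 5.83, 7.81 and 1.68 TPM in control. Controls 1 and 2 were above every treated library, but control 3 lay within the treated range. Mt2 amounted to between 0 and 2.98% of the Mt1 level of the same library.

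The differences of Mt2 from control were −1.22 ± 0.501 for 15% CO2, −0.72 ± 0.501 for lactic acid and −1.56 ± 0.501 for low NaHCO3 on the log2(TPM + 1) scale, and −1.06, −0.56 and −1.40 (each ± 0.54) without control 1. Between treatments no difference passed, with limma adjusted p = 0.963 for lactic acid against 15% CO2, 0.59 for low NaHCO3 against 15% CO2 and 0.188 for low NaHCO3 against lactic acid. The interval of the last ran from −1.94 to 0.26. The low-NaHCO3 difference from 15% CO2 was −0.34, and 0.097 without low NaHCO3 2, the library listed at 0. With a pseudocount of 0.1 in place of 1, the low-NaHCO3 difference from control was −2.82. In GENCODE M21, 73.5% of the exonic bases of Mt2 (432 of 588) overlap the antisense gene Gm45774, which has no entry in the table. Whether reads were counted by strand is not given in the sources used here, and the part of that overlap in the low Mt2 values was not tested. Mt1 and Mt2 transcripts share no stretch longer than 20 bases.

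Mtf1 (ENSMUSG00000028890, chromosome 4), the gene of the zinc-sensing factor itself, was lower in low-NaHCO3 medium than in any other group. It stood at 13.8, 14.1 and 14.3 TPM under 15% CO2 and at 11.2, 11.8 and 13.0 TPM with lactic acid. In low-NaHCO3 medium it stood at 10.4, 9.80 and 9.32 TPM, against 14.3, 13.6 and 13.3 TPM in control. The 15% CO2 libraries overlapped the controls, the lactic acid libraries lay just under them, and the low-NaHCO3 libraries lay under all 9 others.

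The differences of Mtf1 from control were 0.034 ± 0.092 for 15% CO2, −0.18 ± 0.092 for lactic acid and −0.44 ± 0.092 for low NaHCO3, and 0.061, −0.16 and −0.41 (each ± 0.087) without control 1. Between treatments, low NaHCO3 was lower than 15% CO2 (log2 difference −0.48 ± 0.092, limma adjusted p = 0.00136). That call held under median-of-ratios scaling, where the difference was −0.26 (limma adjusted p = 0.0428). Low NaHCO3 was lower than lactic acid (log2 difference −0.26 ± 0.092, limma adjusted p = 0.0374), but not under median-of-ratios scaling, where the difference was −0.087 (limma adjusted p = 0.487). That call was also lost when 9 of the 12 libraries were left out in turn, at limma adjusted p from 0.0505 to 0.118. Lactic acid against 15% CO2 gave −0.22 ± 0.092, with an interval from −0.42 to −0.016 (limma adjusted p = 0.537). The median difference of all tested genes was −0.20 for low NaHCO3 against 15% CO2 and −0.16 against lactic acid, and the Mtf1 differences are to be read against these. Exons of Mtf1 overlap the opposite-strand gene 1110065P20Rik over 8.09% of their bases, and that gene stood at 1.99 to 6.04 TPM.

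Slc30a1 (ENSMUSG00000037434, chromosome 1), the exporter of the plasma membrane, stood higher in low-NaHCO3 medium than in the other 2 treatments. It stood at 11.4, 14.3 and 10.8 TPM under 15% CO2 and at 11.3, 13.7 and 9.20 TPM with lactic acid. In low-NaHCO3 medium it stood at 17.1, 15.7 and 16.9 TPM, against 31.4, 15.0 and 14.3 TPM in control. Control 1 lay far above the other 2 controls, the 15% CO2 and lactic acid libraries lay below all controls, and the low-NaHCO3 libraries lay between control 1 and the other 2.

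The sign of the low-NaHCO3 difference from control for Slc30a1 depended on control 1: it was −0.18 ± 0.25 with all libraries and 0.17 ± 0.15 without control 1. For 15% CO2 the difference was −0.61 ± 0.25 with all libraries and −0.26 ± 0.15 without control 1, and for lactic acid it was −0.70 ± 0.25 and −0.36 ± 0.15. The markers of other brain cells were also high in control 1, and the part of such cells in its Slc30a1 level was not tested. Low NaHCO3 against 15% CO2 gave 0.43 ± 0.25 (limma adjusted p = 0.177) and low NaHCO3 against lactic acid gave 0.52 ± 0.25 (limma adjusted p = 0.109) in the 12-library fit. Without control 1 both passed, with the same differences and limma adjusted p = 0.0132 and 0.00472. Both also passed with all libraries under median-of-ratios scaling, at 0.65 (limma adjusted p = 0.0418) and 0.70 (limma adjusted p = 0.0313). Lactic acid against 15% CO2 gave −0.092, with an interval from −0.65 to 0.46 (limma adjusted p = 0.999). Exons of Slc30a1 overlap the antisense gene 1700034H15Rik over 8.92% of their bases, and that gene has no entry among the deposited genes. The part of that overlap in the Slc30a1 levels was not tested.

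Slc39a10 (ENSMUSG00000025986, chromosome 1), the importer, was highest with lactic acid once control 1 was set aside. It stood at 53.5, 54.5 and 53.1 TPM under 15% CO2 and at 70.6, 74.0 and 63.7 TPM with lactic acid. In low-NaHCO3 medium it stood at 61.5, 60.4 and 62.3 TPM, against 87.9, 51.8 and 50.7 TPM in control. All 9 treated libraries lay above controls 2 and 3 and below control 1. Within that span the 3 treatments did not overlap, with 15% CO2 lowest, low NaHCO3 next and lactic acid highest.

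With all libraries the differences of Slc39a10 from control were −0.19, 0.17 and 0.0007 (each ± 0.17) for 15% CO2, lactic acid and low NaHCO3, and without control 1 they were 0.067, 0.43 and 0.26 (each ± 0.0702). With all libraries none of the differences between treatments passed: lactic acid against 15% CO2 gave 0.36 ± 0.17 (limma adjusted p = 0.614), low NaHCO3 against 15% CO2 gave 0.19 ± 0.17 (limma adjusted p = 0.371) and low NaHCO3 against lactic acid gave −0.17 ± 0.17 (limma adjusted p = 0.428). Without control 1 all 3 passed, with limma adjusted p = 0.0108, 0.0186 and 0.0303. The difference between low NaHCO3 and lactic acid turned to 0.012 under median-of-ratios scaling with all libraries and to 0.0089 with control 1 also left out. The level of Slc39a10 ranked in place 3 of its family of 14 importers in every library, and it made up 9.05% to 13.4% of the summed TPM of that family in the 11 libraries other than control 1 and 18.1% in control 1.

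All 5 genes passed the filter on low values, and Mt2 reached 1 TPM in at least 1 library of each group. Against control, 1 of the 5 was past the threshold under 15% CO2, where 1.35% of all tested genes were, 1 with lactic acid (3.99% of all) and 3 in low-NaHCO3 medium (54.8% of all). Without control 1 the counts were 1 (7.38% of all), 2 (16.1% of all) and 4 (63.7% of all). Nothing is read from these, since the contrasts with control chose the genes. Between treatments, 0 of the 5 passed for lactic acid against 15% CO2 (2 at an unadjusted p under 0.05, and 0.203% of all genes passed). For low NaHCO3, 2 passed against 15% CO2 (51.3% of all) and 1 against lactic acid (48.5% of all). Without control 1 these counts were 2 (4.60% of all), 4 (69.3% of all) and 4 (67.4% of all). The members' counts in the low-NaHCO3 contrasts are to be read against those shares. Mt1 and Mtf1 lay below the median gene, and Slc30a1 above it, in the 12-library differences of low NaHCO3 from both other treatments.

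The other members of the zinc families were counted as whole families: the metallothioneins Mt3 and Mt4, 9 further exporters of the ZnT family and 13 further importers of the ZIP family. Of these 24 genes, 16 were high enough to test. Mt3, the brain metallothionein, stood at 125 TPM in control 1 and was listed at 0 in the other 11 libraries. Slc39a12, an importer known from brain, stood at 24.0 TPM in control 1 and at no more than 0.164 TPM elsewhere. In all, 9 of the 24 were highest in control 1.

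Under 15% CO2, 0 of the 16 passed against control, with 1 at an unadjusted p under 0.05 (limma), and the same counts were found with lactic acid. Of all tested genes, 1.35% passed for 15% CO2 and 3.99% for lactic acid. Without control 1, 0 passed for 15% CO2 (4 at an unadjusted p under 0.05, limma), where 7.38% of all genes passed. With lactic acid 2 fell, 12.5% of the 16, where 16.1% of all genes passed. Those were Slc39a6, an importer that pairs with ZIP10 (−0.38 ± 0.082, limma adjusted p = 0.012), and Slc30a6, a subunit of a Golgi transporter (−0.35 ± 0.10, limma adjusted p = 0.0459). In low-NaHCO3 medium 3 rose and 6 fell against control, and 4 rose and 8 fell without control 1. These are 56.2% of the 16, against 54.8% of all genes, and 75% of the 16, against 63.7% of all genes, without control 1. The median difference of the 16 was −0.057, against −0.20 over all tested genes. In the other 2 contrasts with control it was −0.0054 for 15% CO2 and −0.083 for lactic acid, against 0.01 and −0.036 over all genes. Without control 1 the medians of the 16 were −0.15 for low NaHCO3, against −0.17 over all genes, −0.0093 for 15% CO2, against 0.034, and −0.026 for lactic acid, against a median near 0.

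**Figure D3:**
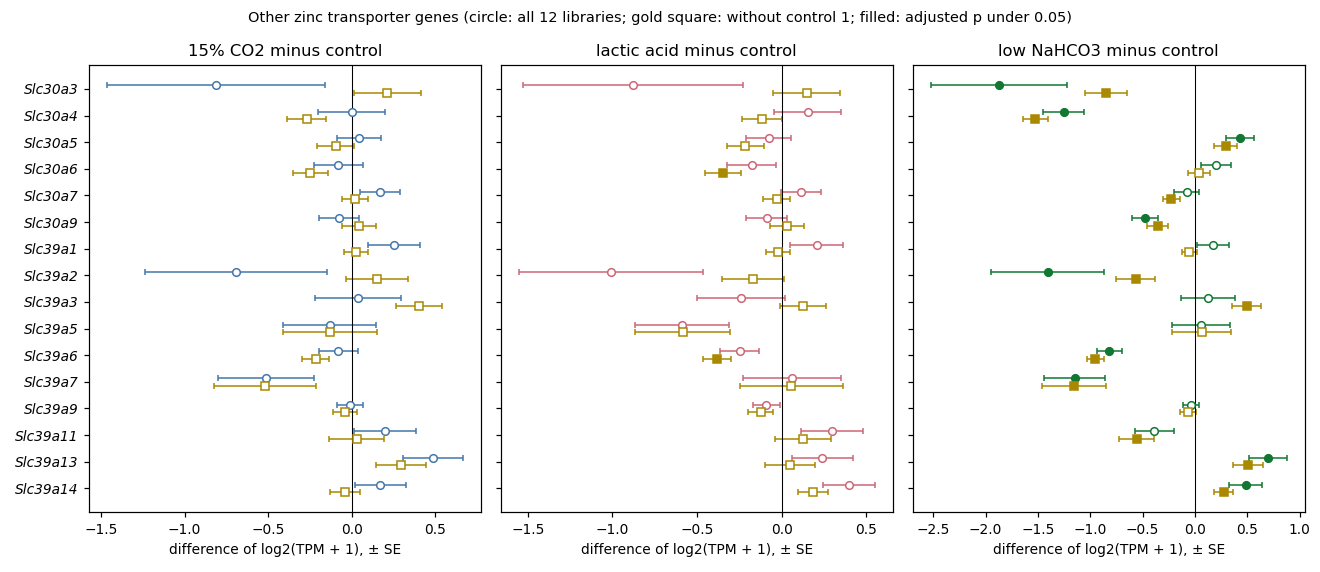
Difference from control in log2(TPM + 1), with the standard error of the fit, of the 16 tested zinc transporter genes other than Slc30a1 and Slc39a10, for 15% CO2, lactic acid and low NaHCO3; circles use all 12 libraries, gold squares leave out control 1, and filled symbols passed an adjusted p of 0.05. Filled circles appear only for low NaHCO3. In that panel Slc30a4 lies lowest among the squares, at −1.53, and the circle of Slc30a3 lies lower still, at −1.87.

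The exporter Slc30a4 (ZnT4), which loads zinc into vesicles and milk, fell in low-NaHCO3 medium. It stood at 262, 336 and 261 TPM under 15% CO2 and at 337, 336 and 280.5 TPM with lactic acid. In low-NaHCO3 medium it stood at 114, 124 and 118 TPM, against 196, 351 and 336 TPM in control. The low-NaHCO3 libraries lay under all 9 others. The log2 difference was −1.25 ± 0.198 against control (limma adjusted p = 0.000344) and −1.53 ± 0.12 without control 1. It was −1.25 ± 0.198 against 15% CO2 (limma adjusted p = 0.000363) and −1.41 ± 0.198 against lactic acid (limma adjusted p = 0.000189). The summed TPM of the 10 exporters was 279 to 286 in low-NaHCO3 medium, against 383, 514 and 496 in control, and Slc30a4 made up 41.0% to 43.5% of it in low-NaHCO3 medium, against 51.1% in control 1 and 68.4% and 67.7% in controls 2 and 3. The level of Slc30a4 was 6.67 to 7.90 times that of Slc30a1 in low-NaHCO3 medium, against 6.24 times in control 1 and 23.4 times in controls 2 and 3.

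**Figure D4:**
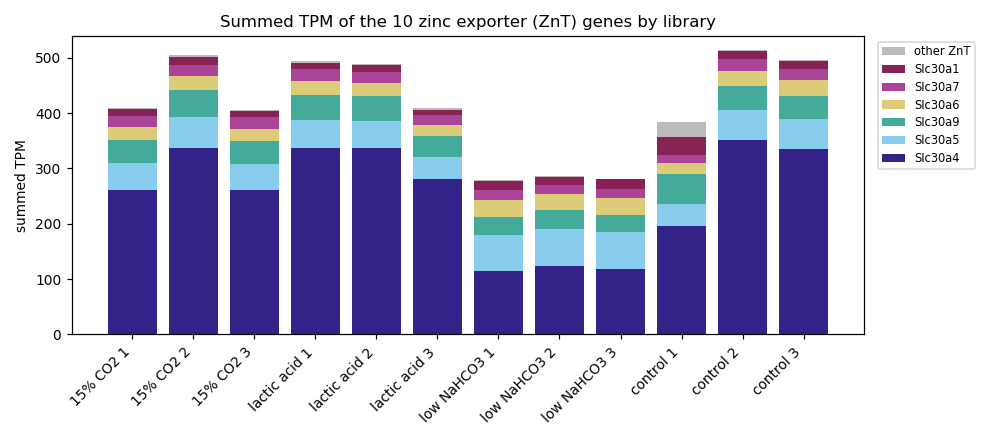
Summed TPM of the 10 zinc exporter (ZnT) genes in each library of the 15% CO2, lactic acid, low-NaHCO3 and control groups, with the parts of 6 genes stacked and the remaining 4 in grey. The low-NaHCO3 libraries reach 279 to 286 TPM, and their Slc30a4 part is 114 to 124 TPM.

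Of the other exporters, Slc30a5, the partner of ZnT6 in loading zinc into the Golgi, rose in low-NaHCO3 medium against control (66.2 ± 1.54 against 49.2 ± 8.02 TPM, log2 difference 0.43 ± 0.13, limma adjusted p = 0.0176), and by 0.29 ± 0.11 without control 1. It was also higher than under 15% CO2 (0.39 ± 0.13, limma adjusted p = 0.0293) and with lactic acid (0.51 ± 0.13, limma adjusted p = 0.00872). Slc30a9, a mitochondrial zinc exporter, fell against control (32.6 ± 2.69 against 46.0 ± 7.16 TPM, log2 difference −0.48 ± 0.12, limma adjusted p = 0.00696), with a difference of −0.35 ± 0.10 without control 1. Slc30a3, the zinc loader of synaptic vesicles, was called lower (−1.87 ± 0.65) but stood at 19.9 TPM in control 1, and without that library the difference was −0.85 ± 0.200. In the 12-library fit Slc30a6 passed only against lactic acid (0.38 ± 0.14, limma adjusted p = 0.0472).

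Among the importers, Slc39a6 stood at 83.2, 83.3 and 71.5 TPM in low-NaHCO3 medium, against 116, 152 and 156 TPM in control. It fell against control (−0.82 ± 0.12, limma adjusted p = 0.000172), against 15% CO2 (−0.74 ± 0.12, limma adjusted p = 0.000357) and against lactic acid (−0.57 ± 0.12, limma adjusted p = 0.00215). Slc39a13, which releases zinc from vesicles, rose against control (0.70 ± 0.18, limma adjusted p = 0.00709), and Slc39a14, a carrier of zinc, iron and manganese, rose too (0.48 ± 0.15, limma adjusted p = 0.0209). Without control 1 these were 0.51 and 0.27. Exons of Slc39a13 overlap the opposite-strand gene Psmc3 over 4.42% of their bases, and Psmc3 stood at 180 to 300 TPM. Slc39a7, which releases zinc from the endoplasmic reticulum, was called lower (−1.15 ± 0.29, limma adjusted p = 0.00636) at means of 0.41 TPM in low-NaHCO3 medium against 2.06 TPM in control, and 80.7% of its exonic bases overlap the same-strand gene Gm20427. Slc39a2 was called lower (−1.41, and −0.57 without control 1, the library in which it stood at 10.2 TPM). Of its exonic bases, 4.38% overlap the same-strand gene Mettl17, which stood at 7.18 to 23.9 TPM. The part of these overlaps in the levels was not tested. Slc39a1, the most abundant importer, stood at 195 ± 9.36 TPM in low-NaHCO3 medium, against 177 ± 44.6 TPM in control, and did not pass in any of the 6 contrasts in either fit.

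Between treatments, 0 of the 16 genes passed for lactic acid against 15% CO2, with 0 at an unadjusted p under 0.05 (limma) and 3 without control 1. Low NaHCO3 against 15% CO2 gave 1 that rose, Slc30a5, and 4 that fell, and low NaHCO3 against lactic acid gave 2 that rose and 5 that fell. Slc30a4, Slc39a6, Slc30a9 and Slc39a11, an importer of inner membranes, were the 4 that fell, and they were among the 5, with Slc39a7. Slc39a11 gave −0.59 ± 0.18 against 15% CO2 (limma adjusted p = 0.0204) and −0.68 ± 0.18 against lactic acid (limma adjusted p = 0.0103). Without control 1 the counts were 3 that rose and 7 that fell against 15% CO2, and 5 and 7 against lactic acid. The genes called were 31.2% of the 16 against 15% CO2, where 51.3% of all genes passed, and 43.8% of the 16 against lactic acid, where 48.5% of all genes passed. Without control 1 they were 62.5% of the 16, where 69.3% of all genes passed, and 75% of the 16, where 67.4% passed.

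Calls of Slc30a4, Slc39a6, Slc39a7 and Slc39a13 held in every contrast named here when each library was left out in turn and under median-of-ratios scaling. That scaling ended the calls of Slc30a9 against both other treatments, of Slc39a11 against 15% CO2 and of Slc39a2 against control. Against control, Slc30a5 was lost without low NaHCO3 3, Slc39a14 without low NaHCO3 1 or 2, Slc30a3 without any single low-NaHCO3 library, and Slc39a2 without any single treated library. Against 15% CO2, Slc30a5 was lost without CO2 1, CO2 3 or any low-NaHCO3 library, Slc30a9 without CO2 2 or low NaHCO3 3, and Slc39a11 without CO2 1, CO2 2 or low NaHCO3 3. Against lactic acid, Slc30a9 was lost without lactic acid 1, lactic acid 2, low NaHCO3 1 or low NaHCO3 3, and Slc30a6 without any library other than lactic acid 1, control 1 and control 3.

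The genes most alike to each of the 5 were sought over the 11 libraries other than control 1, by Pearson's r of log2(TPM + 1) among 9839 genes with a mean of at least 5 TPM. These libraries form 4 groups and share their group differences, so r is a description. Mt1 was most like Asna1, which inserts tail-anchored proteins into membranes (r = 0.976), Ccdc86 (r = 0.971) and the translation factor gene Eif4g1 (r = 0.969). Asna1 stood at 94.1 to 109 TPM in low-NaHCO3 medium, against 161 and 165 TPM in controls 2 and 3. Mtf1 was most like the stress kinase gene Eif2ak1 (r = 0.987), Tob2 (r = 0.983) and Pqlc2 (r = 0.982). Slc30a1 was most like Wdr33 (r = 0.981), Get4 (r = 0.978) and Srprb, a subunit of the signal recognition particle receptor (r = 0.977). Slc39a10 was most like Ermp1 (r = 0.936), with Hspa2 (r = 0.917) also among its 3 most alike. Mt2, at a few TPM, reached lower values, with Uqcrb (r = 0.888), Ddt (r = 0.82) and Uxt (r = 0.789). None of Mt1, Mtf1, Slc30a1 and Slc39a10 was among the 3 most alike to another of the 5 genes. Mt2 lay under the required mean of 5 TPM, so it was not a candidate and could not be listed as alike to the others.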

How the data were processed

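Members and lists were chosen with earlier results of these data known. The authors deposited TPM (transcripts per 1000000) for 21959 Ensembl genes in 12 libraries. The submitters' processing notes name fastp 0.22.0, HISAT2 2.1.0 and the build GRCm39. For the counter, the annotation and strandedness, the setting is not given in the sources used here. Groups follow the treatment labels; some replicate descriptions carry counted-up numbers (CO3, CO4), read as copying errors. Symbols came from GENCODE M21, for 21851 of the genes.

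TPM gives no counts, so depth is unknown and no counting interval was given. On the log2(TPM + 1) scale differences of genes with low TPM are understated. Genes that reached 1 TPM in 3 or more libraries (12326, or 12226 without control 1) were fitted as group means by limma 3.58.1 under R 4.3.3 (trended eBayes, two-sided, Benjamini-Hochberg over all genes within a contrast, threshold 0.05). The procedure was tested on simulated data with the spread of the low-NaHCO3 libraries. Those data held no outlying library like control 1, so they do not cover its effect on the calls. Alternatives were a pseudocount of 0.1, no filter, median-of-ratios scaling, a fit of only the groups compared, a replicate block, and each library left out in turn. Scaling and block with control 1 left out were added after seeing the data. Promoters are from RefSeq on GRCm38.p6, found for all 5 genes, and overlaps from GENCODE M21. Named genes were all 5 members, zinc genes past the threshold and the 3 most abundant, up to 3 called genes with the largest differences of each further list, and the 3 most alike to each member. A gene that this rule names is not reported here.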

Additional observations from a re-analysis of the deposited data

How the results depend on the processing

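Depth is unknown, so no limit from counting could be set. Between treatments the 5 genes kept their direction under every alternative tried, except 3 differences that were not called with all 12 libraries: Slc39a10 in low NaHCO3 against lactic acid under scaling, Slc30a1 in lactic acid against 15% CO2 without CO2 2 or lactic acid 3, and Mt2 in low NaHCO3 against 15% CO2 without low NaHCO3 2. Median-of-ratios scaling gave, for low NaHCO3 against control, −0.99 for Mt1 and −0.26 for Mtf1. It gave low NaHCO3 against 15% CO2 0.65 for Slc30a1, and against lactic acid 0.70 for Slc30a1 and −0.087 for Mtf1. Without control 1 this scaling gave, against control, −0.97 for Mt1, −0.24 for Mtf1, 0.35 for Slc30a1 and 0.45 for Slc39a10 in low NaHCO3, and −0.35 and 0.44 for Slc30a1 and Slc39a10 with lactic acid. It gave Slc39a10 0.404 for lactic acid and 0.41 for low NaHCO3 against 15% CO2, and for low NaHCO3 gave Slc30a1 0.64 against 15% CO2 and 0.7 against lactic acid, and Mtf1 −0.0903 against lactic acid. The pseudocount of 0.1 gave Mt2 −2.82 for low NaHCO3 against control.

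The fit of only the 2 groups compared called Slc30a1 (0.43) and Slc39a10 (0.19) for low NaHCO3 against 15% CO2, and Mt1 (−0.25) and Slc30a1 (0.52) against lactic acid. Deviations of same-numbered libraries from their group means did not correlate above 0.1 in all 3 numbers of any pair of groups. For 15% CO2 and lactic acid, r was −0.027, 0.313 and 0.462 for numbers 1, 2 and 3. The main fit used no pairing, and whether some same-numbered libraries share a batch was not tested. The replicate block put Mtf1 in low NaHCO3 against lactic acid short of the threshold (−0.26, limma adjusted p = 0.0583). Without control 1 the replicate block gave, against control, −0.26 and 0.063 for Slc30a1 and Slc39a10 under 15% CO2, −0.35 and 0.42 with lactic acid, and 0.17 and 0.25 in low NaHCO3. Between treatments it gave Slc39a10 0.36, 0.19 and −0.17, Slc30a1 0.43 and 0.52 for low NaHCO3, and Mt1 −0.25 for low NaHCO3 against lactic acid.

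Of the other 16 zinc genes, the fit of 2 groups called 10 and 11 for low NaHCO3 against 15% CO2 and lactic acid. Scaling without control 1 called 1 and 3 for 15% CO2 and lactic acid against control, and 1, 13 and 14 between treatments, and the replicate block without control 1 called 2 for lactic acid, and 11 and 13 for low NaHCO3 against 15% CO2 and lactic acid. Of all genes, the 2-group fit called 0 for 15% CO2 and 0 for lactic acid against control (limma, 1177 and 1672 at an unadjusted p under 0.05) and 115 for lactic acid against 15% CO2. The replicate block called 72 for 15% CO2 against control and 13 for lactic acid against 15% CO2, and without control 1 it called 864, 2287 (lactic acid against control) and 527. Scaling called 777 for lactic acid against control and 43 against 15% CO2, and without control 1 it called 1350, 2694 and 820. No filter called 12 for lactic acid against 15% CO2.

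Leaving out single libraries gave these ranges, and control 1 set 1 end of most. Against control, Slc30a1 ran from −0.802 to −0.26 for 15% CO2, −0.89 to −0.36 for lactic acid and −0.37 to 0.17 for low NaHCO3, and Slc39a10 from −0.32 to 0.067, 0.037 to 0.43 and −0.13 to 0.26. For lactic acid against 15% CO2, Mt1 ran from −0.45 to −0.31 and Slc39a10 from 0.32 to 0.42. For low NaHCO3 against 15% CO2, Slc30a1 ran from 0.36 to 0.54 and Slc39a10 from 0.18 to 0.201. Against lactic acid, Mt1 ran from −0.33 to −0.19, Mtf1 from −0.304 to −0.201, Slc30a1 from 0.39 to 0.65 and Slc39a10 from −0.23 to −0.13. The Mtf1 call was lost without 9 of the 12 libraries in turn, at limma adjusted p from 0.0505 to 0.118. Calls among other zinc genes ran from 0 to 2 for lactic acid against control. For low NaHCO3 they ran from 2 (without low NaHCO3 3) to 10 against 15% CO2 and from 5 to 12 against lactic acid. Calls of all genes ran from 30 (without CO2 1) to 902 for 15% CO2 against control. For lactic acid they ran from 101 (without lactic 1) to 1972 against control and from 6 (without CO2 2) to 563 against 15% CO2. Of 21 single calls among other zinc genes, 13 were kept without low NaHCO3 3. The causes of these moves were not tested.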

Other observations

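Metallothionein genes also answer to copper, glucocorticoids and oxidative stress, so genes of these 3 kinds were counted beside the 5. Of 10 tested genes of copper handling, 1 rose under 15% CO2 against control and 0 fell, where 1.35% of all genes passed: Cox17, the copper chaperone of cytochrome oxidase (11.1 ± 1.44 TPM under 15% CO2 against 6.66 ± 0.282 TPM in control, log2 difference 0.65 ± 0.12, limma adjusted p = 0.0276). With lactic acid, where 3.99% of all genes passed, 1 rose, the metalloreductase gene Steap2 (68.9 ± 5.15 against 42.1 ± 8.17 TPM, log2 difference 0.71 ± 0.15, limma adjusted p = 0.029). In low-NaHCO3 medium 1 rose and 2 fell, where 54.8% of all genes passed. Cox17 stood at 19.5, 19.2 and 19.7 TPM there, against 6.71, 6.36 and 6.92 TPM in control (log2 difference 1.42 ± 0.12, limma adjusted p = 5.89e-06). Slc31a2, a copper transporter of endosomes, fell (−0.905 ± 0.15), as did Steap3 (−0.54 ± 0.16). Against the other treatments in low-NaHCO3 medium, 1 copper gene rose and 3 fell relative to 15% CO2 (51.3% of all genes), and 3 rose and 3 fell relative to lactic acid (48.5% of all genes). The fit of only the 2 groups compared called 0 genes of any kind for 15% CO2 and for lactic acid against control (limma, 1177 and 1672 at an unadjusted p under 0.05), so the calls of Cox17 under 15% CO2 and of Steap2 and Dusp1 with lactic acid end there. Leaving out single libraries also ended the Cox17 call for 15% CO2 (without CO2 1 or 2, lactic acid 1, low NaHCO3 1, or control 2 or 3) and the Steap2 call (without CO2 1, low NaHCO3 1 or any lactic acid library). It ended the Dusp1 call for lactic acid without any lactic acid library or without control 2 or 3, and the Steap3 call for low NaHCO3 without low NaHCO3 1 or control 3. The Steap3 call also ended under median-of-ratios scaling and in the 2-group fit. With the replicate block the Cox17 call for 15% CO2 against control ended too (limma adjusted p = 0.0532).

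Of 10 tested glucocorticoid receptor targets, 0 passed under 15% CO2 (2 at an unadjusted p under 0.05, limma), where 1.35% of all genes passed. With lactic acid, where 3.99% of all genes passed, 1 rose, the phosphatase gene Dusp1. It stood at 37.3 ± 3.30 TPM there, against 21.2 ± 4.58 TPM in control (log2 difference 0.81 ± 0.15). In low-NaHCO3 medium 4 rose and 2 fell, where 54.8% of all genes passed. Per1, a clock gene, stood at 125, 92.9 and 134 TPM there, against 45.2, 11.1 and 11.95 TPM in control (log2 difference 2.60 ± 0.402, and 3.22 ± 0.14 without control 1). Dusp1 rose (1.48 ± 0.15) and Ddit4, an inhibitor of mTORC1, fell (−1.18 ± 0.23). Of 10 oxidative stress genes, 0 passed under 15% CO2 (1 at an unadjusted p under 0.05, limma), where 1.35% of all genes passed. With lactic acid 0 passed (0 at an unadjusted p under 0.05, limma), where 3.99% of all genes passed. In low-NaHCO3 medium 2 rose and 2 fell, 40% of the 10, where 54.8% of all genes passed. The cystine importer gene Slc7a11 stood at 1.49, 2.35 and 1.82 TPM there, against 16.2, 17.2 and 15.7 TPM in control (−2.60 ± 0.12). Txnrd1, thioredoxin reductase, rose (0.91 ± 0.204), as did Gclc, of glutathione synthesis (0.61 ± 0.0902). Without control 1, 1, 2 and 3 copper genes, 3, 4 and 7 glucocorticoid targets and 2, 1 and 6 oxidative stress genes passed against control for 15% CO2, lactic acid and low NaHCO3, where 7.38%, 16.1% and 63.7% of all genes passed. Without that control, Txnrd1 gave 0.61 ± 0.095 in low-NaHCO3 medium.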
